A study of Mus musculus with 12 samples.

Results

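The circadian clock genes examined here were Arntl (also called Bmal1), Clock, Per1, Per2, Per3, Nr1d1, Nr1d2, Dbp, Tef and Nfil3, 10 of the 12393 genes measured in mouse liver. They were chosen by name, and each was read from the probe set of its own with the highest mean level. Livers came from male mice on a C57BL/6 background, with 1 array per mouse and 3 mice per group. The study's methods write an age of 12 weeks beside the wild type mice and give no separate age for the others. WT and WT_RA mice were wild type, and KO and KO_RA mice were hepatocyte RXRα-deficient, meaning that Cre recombinase under the albumin promoter had removed the fourth exon, which was floxed, of the retinoid X receptor alpha gene. That exon encodes the DNA-binding domain, and the methods describe a shortened protein, with the ligand-binding domain, that is still made. WT and KO mice ate the normal diet, and WT_RA and KO_RA mice received retinoic acid (RA) at 150 mg/kg of diet for 7 days. No source used here gives the time of day at which livers were taken, so time of day and group cannot be told apart.

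In the clock of mammalian cells, the BMAL1 and CLOCK proteins, encoded by Arntl and Clock, bind E-box sequences and switch on the Per, Cry and Nr1d genes as well as Dbp and Tef. The PER and CRY proteins then hold back BMAL1 and CLOCK, while REV-ERBα and REV-ERBβ, the products of Nr1d1 and Nr1d2, repress Arntl, Nfil3, Cry1 and other genes whose DNA holds the hexamer AGGTCA beside an AT-rich stretch. Dbp and Tef encode activators and Nfil3 a repressor that compete for a shared element, the D-box. In mouse liver Nr1d1, Dbp, Tef and the Per genes peak in the light phase or around dusk, and Arntl, Clock and Nfil3 peak at night or around dawn.

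These motifs were looked up in the 250 bases before each transcription start listed by RefSeq (build GRCm38.p6), on both strands, to show where their letters occur. The E-box was spelled CACGTG, the D-box TTATGTAA, TTATGCAA or TTACGTAA, and the REV-ERB and ROR hexamer AGGTCA. No AT-rich stretch was required beside the hexamer, so a match does not single out a REV-ERB or ROR element. The letters ACGT are shared by CACGTG and TTACGTAA, which differ in the bases on either side. Of the 10 genes, 9 were in the table, with 14 promoters, and Per2 was not. The E-box was found in 3 of the 14 (21.4%; Per1 and Tef), against 6.02% of all 32851 promoters. The D-box was found in 2 (14.3%; Per1 and Per3), against 1.61%, and the hexamer in 4 (28.6%; Clock, Nfil3, Nr1d2 and Per1), against 14.0%. Promoters of 1 gene are not independent, and a match is a description of the letters, not a measured binding site. The windows below each hold 60 bases, written 5′ to 3′ on the gene's strand with the motif in capitals. Nfil3 and Cry1 are shown because they carried the changes described below, and Per3, Tef and Nr1d2 as clock genes with a match that did not pass any test. TGACCT is AGGTCA read on the opposite strand.
Nfil3, chr13:52981040-52981099, minus strand, hexamer: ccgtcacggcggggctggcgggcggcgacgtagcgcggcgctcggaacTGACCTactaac
Cry1, chr10:85185082-85185141, minus strand, E-box: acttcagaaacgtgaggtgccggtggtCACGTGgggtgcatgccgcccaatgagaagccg
Per3, chr4:151044837-151044896, minus strand, D-box: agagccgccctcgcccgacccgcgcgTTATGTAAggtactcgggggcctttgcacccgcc
Tef, chr15:81802519-81802578, plus strand, E-box: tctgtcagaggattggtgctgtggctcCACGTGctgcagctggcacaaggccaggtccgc
Nr1d2, chr14:18239151-18239210, minus strand, hexamer: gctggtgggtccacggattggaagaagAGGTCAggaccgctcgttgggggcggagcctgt
The motif began 12 bases before the start in Nfil3, 60 in Cry1, 205 in Per3, 127 in Tef and 77 in Nr1d2. Per3 held a second D-box 158 bases before its start, and the Nfil3 window lay inside the bounds RefSeq gives that gene.

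Values are the authors' log2 signals, in which 1 unit is a doubling, and differences carry the standard error (SE) of a limma fit with n = 3 per group. A gene was called, or written as risen or fallen, at an adjusted p under 0.05 over all 12393 genes. All groups share 1 estimate of the spread. Leaving out an array outside a comparison can therefore change the adjusted p of that comparison, but not the difference. The hepatocyte genes Alb and Ttr read between 13.6 and 14.0 on every array, near the top of the scale. On 2 arrays, WT_RA 3 and KO 1, the 3′ Actb control read 9.40 and 9.12, against 12.1 to 12.9 on the other 10, so counts are also given without both. RNA from whole liver does not separate a change in the number of cells of a type from a change in RNA per cell.

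Dietary RA in wild type mice addressed how the clock genes respond to RA when RXRα is intact. Nfil3 rose 2.78-fold and Nr1d1 fell to 0.298 of its WT level. The other 8 genes did not pass. Of the 10 genes, 2 were called, against 1.27% of all genes tested, and the count was also 2 without WT_RA 3 and KO 1. The median difference of the 10 was 0.08, beside -0.01 for all genes, with 7 positive and 3 negative. With 1 array left out, a check chosen after seeing the data, that median ran from -0.0026 (without WT 3) to 0.17, and the medians of the next 3 comparisons ran from -0.07 to 0.08, 0.03 to 0.17 and -0.09 to 0.08. The 3 arrays of WT_RA did not overlap with those of WT in 4 of the 10 (Nr1d1, Nfil3, Dbp and Per2), against 16.6% of all genes. The call for Nr1d1 was absent without any 1 of the 6 arrays compared.

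RXRα deficiency on the normal diet addressed the clock genes in whole livers whose hepatocytes lacked intact RXRα, without added RA. No clock gene was called: limma passed 0 of 10, against 1.32% of all genes, and 3 had an unadjusted p under 0.05 (Per1, Clock and Nr1d1), against 16.3% of all genes. The count was again 0 without WT_RA 3 and KO 1. KO and WT did not overlap for 1 gene, Per1, against 20.1% of all genes. The median difference of the 10 was 0.01, beside 0.02 for all genes.

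RA in KO mice addressed whether the clock genes respond to RA without intact hepatocyte RXRα. Limma again called 0 of 10, against 0.5% of all genes, and 1, Per1, had an unadjusted p under 0.05, against 14.0% of all genes. The count was 1 without WT_RA 3 and KO 1, as Per1 then passed. KO_RA and KO did not overlap for 2 genes, Per1 and Dbp, against 20.9% of all genes. The median difference was 0.15, beside -0.03 for all genes.

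Under RA, Nfil3 was lower in KO_RA than in WT_RA by 1.27 on the log2 scale, a 2.41-fold fall. It was the only 1 of the 10 called, against 3.95% of all genes, and the count was also 1 without WT_RA 3 and KO 1. KO_RA and WT_RA did not overlap for 3 genes (Nfil3, Nr1d1 and Per2), against 25.6% of all genes. The median difference was 0.02, beside 0.01 for all genes. This comparison and that of RA in wild type mice share the WT_RA arrays, so the values of Nfil3 in both rest in part on the same 3 livers. The RA effect differed between genotypes for 0 of 10 genes in limma, against 0.00807% of all genes, a single gene (Obp2a). Of the 10, 4 had an unadjusted p under 0.05 (Nfil3, Nr1d1, Per2 and Per1), against 11.7% of all genes.

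**Figure D1:**
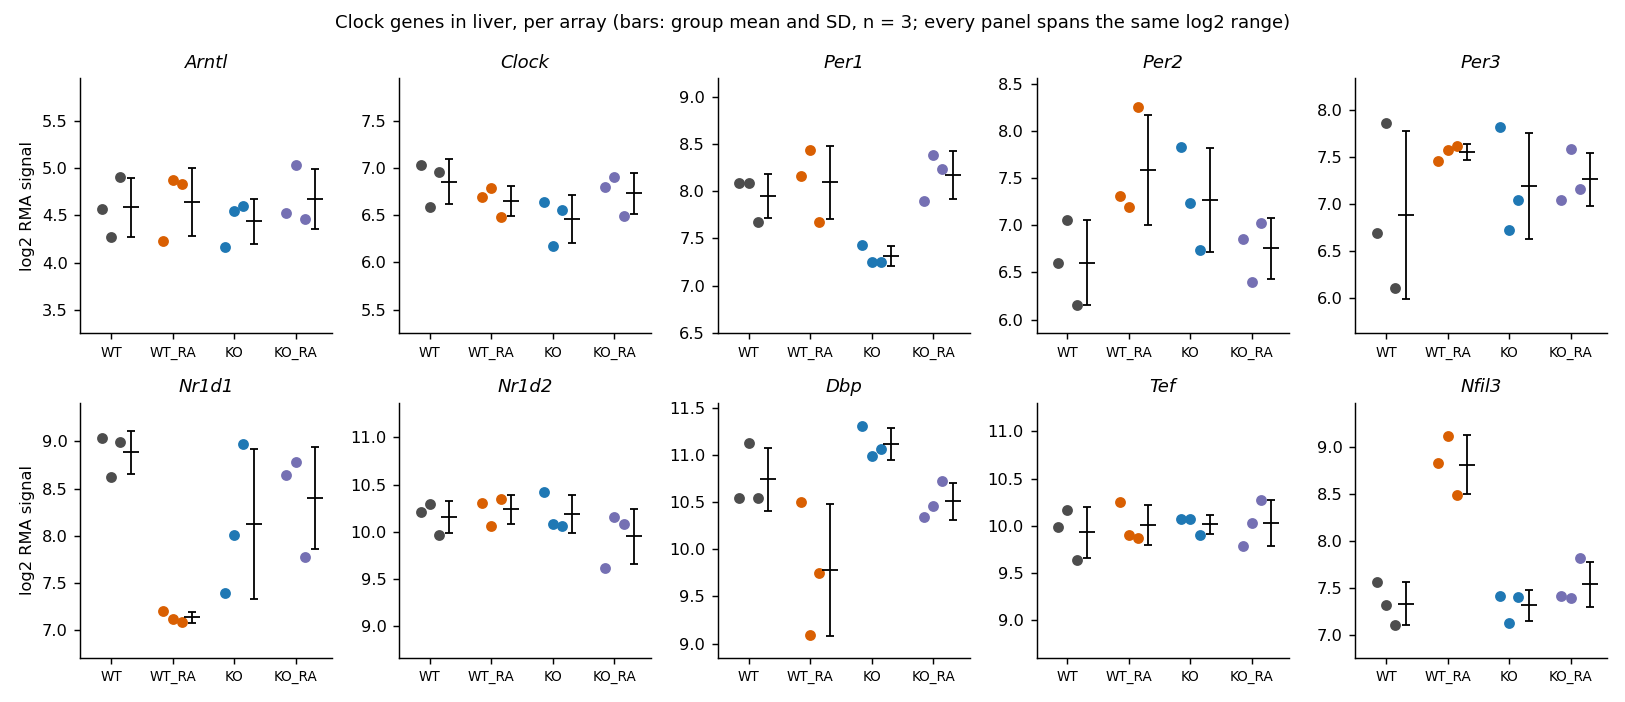
Log2 signal of the 10 clock genes on each array (points), with group means and SDs (bars, n = 3); every panel spans the same number of log2 units. Nr1d1 sits between 7.08 and 7.20 on the WT_RA arrays, below every other array, and Nfil3 between 8.49 and 9.11, above every other array.

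Nr1d1 encodes REV-ERBα, the repressor that links the clock to lipid and bile acid metabolism in liver. It lies at chromosome 11, 98767932 to 98775377 (GRCm38.p6), and was measured by 1 probe set. Its log2 signal was 9.03, 8.62 and 9.0 in WT and 7.20, 7.12 and 7.08 in WT_RA. It was 7.40, 8.0 and 8.97 in KO and 8.64, 8.78 and 7.78 in KO_RA. The WT and WT_RA arrays lay apart, with an SD of 0.06 in WT_RA, whereas KO arrays ran from near the WT_RA level to the WT level. The difference of WT_RA from WT was -1.75 ± 0.34 (SE, limma adjusted p = 0.0287). Without 1 of the 6 arrays it was between -1.67 and -1.88, with adjusted p from 0.0615 to 0.106, and without both WT_RA 3 and KO 1 it was -1.72 with adjusted p = 0.0375. KO differed from WT by -0.76 ± 0.34 (adjusted p = 0.293), a value that was -0.40 without WT_RA 3 and KO 1. KO_RA differed from WT_RA by 1.27 ± 0.34 with no overlap, just short of the threshold (adjusted p = 0.0602). That comparison passed without KO 1 (adjusted p = 0.0256), KO 3 (0.0202) or KO_RA 3 (0.0404). KO 1 and KO 3 belong to neither of its groups, and without either the difference stayed at 1.27. Only the shared spread, and with it the adjusted p, changed. KO_RA differed from KO by 0.28 ± 0.34 (adjusted p = 0.743). The level was thus lowest in WT_RA, below the other 9 arrays, followed by KO, KO_RA and WT, which overlapped one another. The RA effects of the genotypes differed by 2.03 ± 0.48 (adjusted p = 0.192).

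Nr1d2 encodes REV-ERBβ, the close relative that overlaps in function with REV-ERBα. It read between 9.61 and 10.42 on all 12 arrays, and every pair of groups overlapped. Its differences ran from -0.29 (KO_RA against WT_RA, adjusted p = 0.368) to 0.08 (WT_RA against WT, adjusted p = 0.92). A second Nr1d2 probe set gave the opposite sign in all 4 comparisons, with -0.49 in WT_RA against WT, -0.38 in KO against WT, 0.22 in KO_RA against KO and 0.33 in KO_RA against WT_RA. These values rest in part on the arrays with a low Actb control. Leaving out WT_RA 3, a check chosen after seeing the data, gave -0.21 and 0.05 in the comparisons with WT_RA, and leaving out KO 1 as well gave -0.17 in KO against WT and 0.0096 in KO_RA against KO.

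Nfil3 encodes the D-box repressor also known as E4BP4, and is itself repressed by REV-ERBα. It lies at chromosome 13, 52967209 to 52982878, and was measured by 1 probe set. Its log2 signal was 7.57, 7.33 and 7.11 in WT and 8.82, 9.11 and 8.49 in WT_RA. It was 7.42, 7.13 and 7.41 in KO and 7.42, 7.40 and 7.82 in KO_RA. The 3 WT_RA arrays lay above the other 9, and WT, KO and KO_RA overlapped. WT_RA was higher than WT by 1.47 ± 0.17 (SE, limma adjusted p = 0.0023) and KO_RA was lower than WT_RA by 1.27 ± 0.17 (difference -1.27, adjusted p = 0.00248). Both calls held in all 19 alternative fits, with differences from 1.32 to 1.63 and from -1.43 to -1.11. KO differed from WT by -0.02 ± 0.17 (adjusted p = 0.97) and KO_RA from KO by 0.22 ± 0.17 (adjusted p = 0.583). Between genotypes the RA effects differed by -1.25 ± 0.25, which missed the threshold (adjusted p = 0.111).

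**Figure D2:**
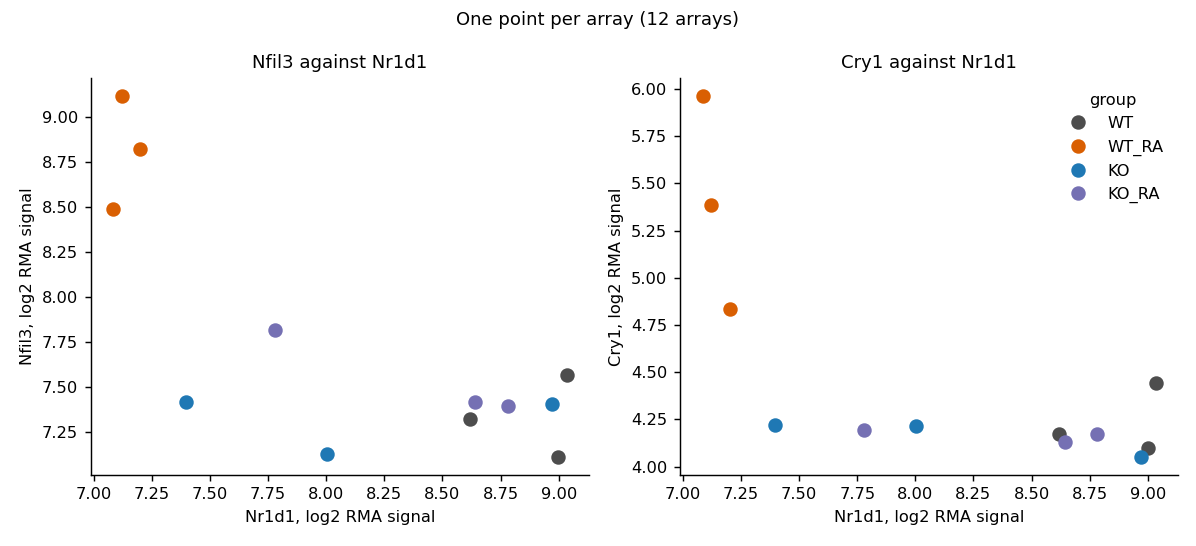
Log2 signal of Nfil3 (left) and Cry1 (right) against that of Nr1d1, 1 point per array, coloured by group. The 3 WT_RA arrays stand alone with Nr1d1 at 7.08 to 7.20, Nfil3 at 8.49 to 9.11 and Cry1 at 4.83 to 5.96, while KO 1, with Nr1d1 at 7.40, has Nfil3 at 7.42 and Cry1 at 4.22.

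Nr1d1 and Nfil3 were then compared array by array. They are the 2 clock genes called in WT_RA against WT, in opposite directions. That their difference separates these groups was therefore fixed by the choice of genes. Deviations are given here from a gene's mean over the 12 arrays. Nr1d1 minus Nfil3 deviations ran from -2.38 to -1.79 in WT_RA and from 0.91 to 1.5 in WT. In KO the range was -0.41 to 1.18 and in KO_RA -0.42 to 1.0. Outside WT_RA, the single array with Nfil3 above its mean was KO_RA 3 (0.07), where Nr1d1 deviated by -0.36. KO 1 and KO_RA 3 were the lowest of their groups in Nr1d1 and the highest in Nfil3 (in KO narrowly, with 7.42 against 7.41 in KO 3). They read 7.40 and 7.78 for Nr1d1 while Nfil3 read 7.42 and 7.82, below every WT_RA array, and Dbp read 11.31 and 10.72, above every WT_RA array. KO 1 is also 1 of the arrays with a low Actb control, and its part in these values was not tested.

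Dbp encodes an activator at the D-box, and its RNA has a very large daily rhythm in liver. It lies at chromosome 7, 45705100 to 45710203. The log2 signal was 10.55, 11.12 and 10.55 in WT, 10.50, 9.09 and 9.75 in WT_RA, 11.31, 10.99 and 11.06 in KO, and 10.34, 10.46 and 10.72 in KO_RA. WT_RA lay below WT, but WT_RA 1 did so by a narrow margin. The difference of WT_RA from WT was -0.96 ± 0.28 and did not pass (limma adjusted p = 0.149). Without WT_RA 1 it passed (adjusted p = 0.0188), so the call depends on that 1 array. KO_RA differed from KO by -0.61 ± 0.28 (adjusted p = 0.358), without overlap. KO differed from WT by 0.38 ± 0.28 (adjusted p = 0.512) and KO_RA from WT_RA by 0.73 ± 0.28 (adjusted p = 0.19, and 0.0339 without WT_RA 1). A second Dbp probe set gave the same signs, with -1.15 in WT_RA against WT, 0.24 in KO against WT, -0.52 in KO_RA against KO and 0.87 in KO_RA against WT_RA. Tef, which encodes the related activator, read between 9.64 and 10.27 on all arrays, with differences of 0.01 to 0.08 in the 4 comparisons and adjusted p of 0.817 or more. Its other probe sets gave other values. One gave -0.36 in WT_RA against WT, -0.33 in KO against WT, 0.50 in KO_RA against KO and 0.53 in KO_RA against WT_RA, and -0.07, 0.01, 0.16 and 0.24 without WT_RA 3 and KO 1. Another gave differences from -0.10 to 0.08 over all arrays.

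The Per genes, which encode the repressors that accumulate toward night, differed from each other in pattern. Per1, which is also induced directly by glucocorticoids and feeding cues, read 8.08, 8.08 and 7.68 in WT and 8.16, 8.44 and 7.67 in WT_RA. It read 7.43, 7.25 and 7.25 in KO and 7.89, 8.39 and 8.23 in KO_RA. The 3 KO arrays were the lowest of the 12. KO differed from WT by -0.64 ± 0.19 (limma adjusted p = 0.134) and KO_RA from KO by 0.86 ± 0.19 (adjusted p = 0.0677), neither past the threshold. Without WT_RA 3 and KO 1 the difference of KO_RA from KO was 0.92 and passed (adjusted p = 0.0407), as it did without WT_RA 3 alone (0.0381). As WT_RA 3 is outside that comparison, the difference without it alone stayed at 0.86. In wild type mice the RA difference was 0.14 ± 0.19 (adjusted p = 0.873), and the difference between genotypes in the RA effect was 0.72 ± 0.27 (adjusted p = 0.329).

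Per2 read 6.60, 7.06 and 6.16 in WT, 7.31, 7.19 and 8.25 in WT_RA, 7.83, 7.24 and 6.73 in KO, and 6.85, 6.40 and 7.02 in KO_RA. WT_RA lay above both WT and KO_RA. The difference of WT_RA from WT was 0.98 ± 0.33 (limma adjusted p = 0.221) and that of KO_RA from WT_RA was -0.83 ± 0.33 (adjusted p = 0.208). The highest of the 12 values came from WT_RA 3 and the next from KO 1, both with low Actb controls. Without them the differences were 0.65 (adjusted p = 0.39) and -0.50 (adjusted p = 0.374). The second Per2 probe set, with a mean of 5.69, gave -0.02 and -0.01 in the same comparisons. Per3 read 6.11 to 7.86 within WT, which held both the lowest and the highest of the 12 arrays, and its differences from -0.29 to 0.66 had adjusted p of 0.562 or more. Its other probe sets gave 0.08 and 0.29 in WT_RA against WT, and -0.02 and -0.34 in KO against WT. They gave 0.0039 and 0.26 in KO_RA against KO, and -0.10 and -0.37 in KO_RA against WT_RA.

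Arntl and Clock, the activators, showed no called difference. Arntl read between 4.17 and 5.03, beside lower quartiles of 4.87 to 5.02 over all probe sets of an array, so it lay near the floor, where differences are compressed. Its differences ran from -0.15 to 0.24 (adjusted p of 0.652 or more). Clock read 7.03, 6.59 and 6.95 in WT, 6.69, 6.78 and 6.48 in WT_RA, 6.64, 6.17 and 6.56 in KO, and 6.79, 6.91 and 6.49 in KO_RA. Its largest difference, KO against WT, was -0.40 ± 0.16 (adjusted p = 0.249), with 1 KO array inside the WT range. A second Clock probe set gave -0.76 in that comparison (-0.71 without WT_RA 3 and KO 1), -0.26 in WT_RA against WT, 0.42 in KO_RA against KO and -0.08 in KO_RA against WT_RA.

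**Figure D3:**
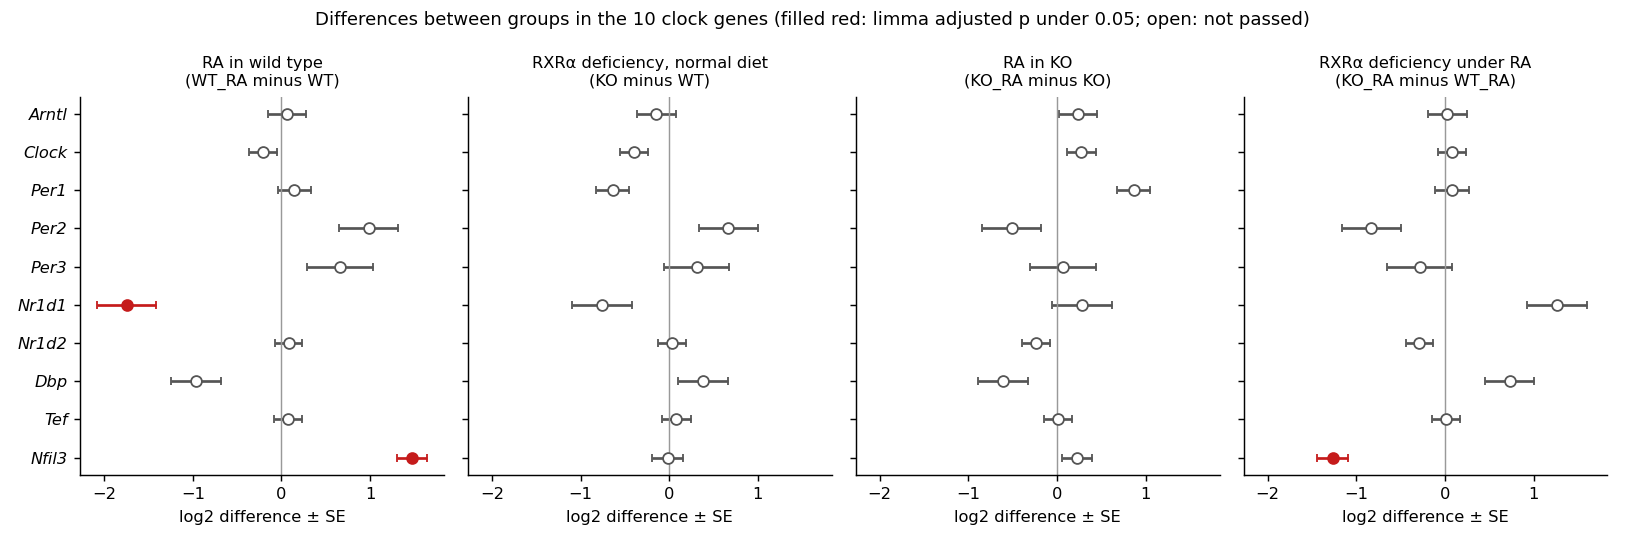
Log2 differences of the 10 clock genes in the 4 comparisons, with SE bars from the limma fit; filled red points had an adjusted p under 0.05. The called values are Nr1d1 (-1.75) and Nfil3 (1.47) in WT_RA against WT and Nfil3 (-1.27) in KO_RA against WT_RA.

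Other core clock genes were listed by role, 14 in all. Of these 10 were measured here by a probe set of their own. In wild type mice under RA 1 of the 10 rose, Cry1, which encodes a partner of the PER repressors, and 0 fell, against 1.27% of all genes. WT_RA and WT did not overlap for 5 of the 10, against 16.6%. Cry1 read 4.45, 4.17 and 4.10 in WT, 4.83, 5.39 and 5.96 in WT_RA, 4.22, 4.21 and 4.05 in KO, and 4.13, 4.17 and 4.19 in KO_RA. All 3 WT_RA arrays lay above the other 9, which were near the floor, so the size of the rise is uncertain. WT_RA was higher than WT by 1.16 ± 0.21 (limma adjusted p = 0.0226). Leaving out WT 2, WT 3 or WT_RA 2 lost this call (adjusted p = 0.0831, 0.0959 and 0.0732). It held without WT_RA 3 and KO 1 (0.87, adjusted p = 0.0356).

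In KO_RA mice against WT_RA, 1 of these 10 genes fell and 2 rose, against 3.95% of all genes called, and 4 did not overlap, against 25.6%. Cry1 was lower by 1.23 (difference -1.23, adjusted p = 0.00875) and kept its call in all 18 alternative fits. Bhlhe40, which encodes the repressor DEC1, rose by 0.57 ± 0.12 (adjusted p = 0.0263), and Csnk1d, a kinase of the PER proteins, by 0.46 ± 0.11 (adjusted p = 0.0327). Both were at adjusted p = 0.0901 without WT_RA 3 and KO 1, and the mean over the Csnk1d probe sets differed by 0.14 and did not pass. The Bhlhe40 call was also absent without any 1 of WT_RA 2, WT_RA 3, KO_RA 2 and KO_RA 3. The Csnk1d call was absent without any 1 of WT 2, WT_RA 2, WT_RA 3, KO 3, KO_RA 1 and KO_RA 3. WT 2 and KO 3 are outside this comparison, and without either the Csnk1d difference stayed at 0.46. The other 7 genes did not pass, among them Npas2, which can stand in for Clock (0.20), Rora, the activator that competes with REV-ERBα (-0.06), Hlf, a relative of Dbp (0.01), and Cry2 (0.28). In KO against WT and in KO_RA against KO limma called 0 of the 10, against 1.32% and 0.5% of all genes. Of the 10, 2 and 1 had an unadjusted p under 0.05 (16.3% and 14.0% of all genes), and 2 and 1 did not overlap (20.1% and 20.9%). Medians of the 10 were 0.08 in WT_RA against WT, 0.13 in KO against WT, 0.02 in KO_RA against KO and 0.04 in KO_RA against WT_RA.

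Among 15 measured genes known as outputs of the liver clock, RA in wild type mice changed 2, against 1.27% of all genes. In the order of comparisons used above, 4, 2, 7 and 5 of the 15 did not overlap. The shares of all genes were 16.6%, 20.1%, 20.9% and 25.6%. The tetraspanin gene Tspan4 rose by 1.19 ± 0.11 (limma adjusted p = 0.000297), and Elovl3, a fatty acid elongase gene with a strong daily rhythm, fell by 4.05 (difference -4.05). In KO_RA against WT_RA, Tspan4 was lower by 0.97 (difference -0.97, adjusted p = 0.000669), and the other 14 did not pass, against 3.95% of all genes called. Like Nfil3, Tspan4 was highest on the 3 WT_RA arrays, at 10.20, 10.36 and 10.33, against 8.92 to 9.44 on the other 9. Elovl3 also fell in KO against WT (-2.83) and in KO_RA against KO (-2.39), comparisons in which 0 of the 10 clock genes were called. It was the only 1 of the 15 called in each, against 1.32% and 0.5% of all genes. The call in KO mice under RA was absent without KO 3 or KO_RA 2 (adjusted p up to 0.0636). The median of the 15 was 0.23 in WT_RA against WT, -0.0016 in KO against WT, 0.10 in KO_RA against KO and -0.54 in KO_RA against WT_RA, beside -0.01, 0.02, -0.03 and 0.01 for all genes. Single arrays moved it: the first was 0.01 without WT_RA 2 and 0.39 without WT 2, the second -0.18 without KO 1, the third -0.05 without KO_RA 2, and the last -0.23 without KO_RA 1.

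**Figure D4:**
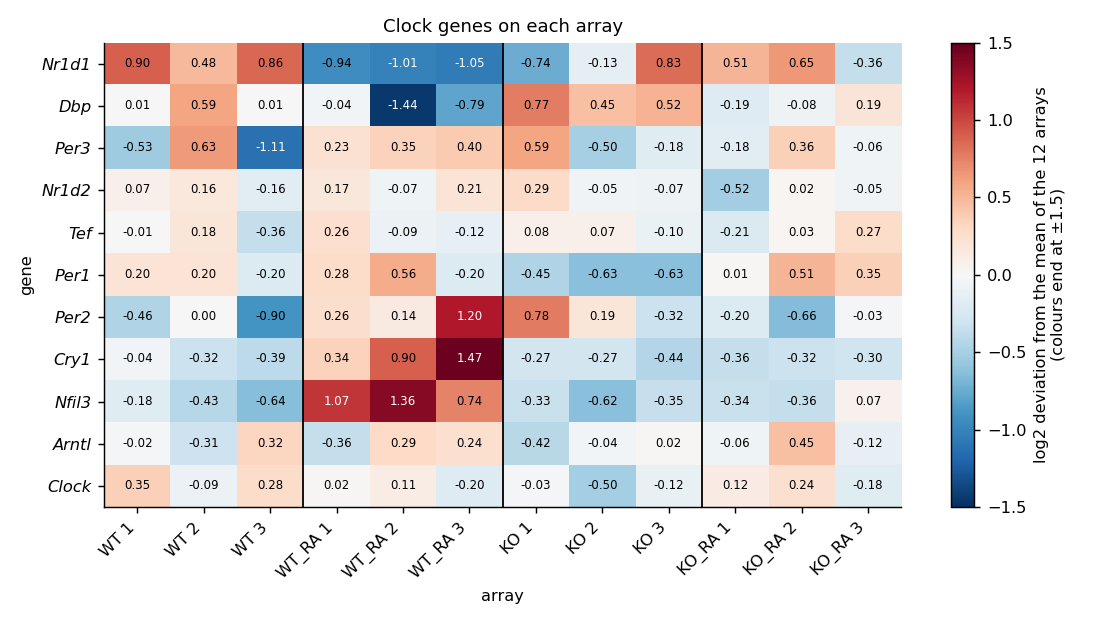
Deviation of the 10 clock genes and Cry1 on each array from their mean over the 12 arrays, in log2 units (red above, blue below, colours ending at 1.5). WT_RA arrays combine Nr1d1 at -0.94 to -1.05 with Nfil3 at 0.74 to 1.36, while Arntl, Clock, Tef and Nr1d2 show no such split.

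The clock genes of the light phase and those of the night were then set side by side on each array. The mean deviation of the 7 genes that peak in the light phase or around dusk was 0.03 ± 0.29 in WT (SD, n = 3), -0.08 ± 0.13 in WT_RA, 0.04 ± 0.14 in KO and 0.02 ± 0.12 in KO_RA. That of the 3 night genes (Arntl, Clock and Nfil3) was -0.08 ± 0.17 in WT, 0.36 ± 0.19 in WT_RA, -0.27 ± 0.12 in KO and -0.02 ± 0.11 in KO_RA. Subtracting the second from the first gave 0.11 in WT, -0.45 in WT_RA, 0.30 in KO and 0.04 in KO_RA. The WT arrays ran from -0.25 to 0.60 and the WT_RA arrays from -0.81 to -0.21, so the groups overlapped. KO lay between 0.16 and 0.45 and KO_RA between -0.02 and 0.12. The split in WT_RA came from Nr1d1, Dbp and Nfil3. Per2 and Per3, which are also genes of the light phase or dusk, had positive differences (0.98 and 0.66) in WT_RA against WT where Nr1d1 and Dbp had negative ones. Neither Per gene passed in limma there (adjusted p = 0.221 and 0.562). The other Per2 probe set gave -0.02, and the other Per3 probe sets 0.08 and 0.29. No test was made of these averages.

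Clock genes varied more between mice of a group than most genes did. The pooled SD within groups had a median of 0.287 over the 10 clock genes, beside 0.145 over all genes, and all 10 lay above the median gene. Per3 (0.546), Nr1d1 (0.496), Per2 (0.486) and Dbp (0.409) varied most, above 98.4%, 97.9%, 97.8% and 96.5% of genes. For Nr1d1 the SD was 0.79 in KO and 0.54 in KO_RA, against 0.23 in WT and 0.06 in WT_RA. Tef (0.216) and Nr1d2 (0.211) varied least among the 10.

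Pairs of clock genes were compared within groups, as deviations from the group means on 12 arrays, by an exact permutation of arrays within groups (two-sided, 6 pairs). Arntl and Dbp, which peak at opposite times of day, had r = -0.74 (p = 0.0332, adjusted over the pairs 0.106) and rho = -0.64 (p = 0.0926, adjusted 0.121), by the exact permutation. Dbp and Tef, which peak together, had r = 0.69 (exact permutation p = 0.0355, adjusted 0.106) and rho = 0.66 (p = 0.0748, adjusted 0.121). Without the 2 arrays farthest from the median of the first gene, these r were -0.80 and 0.76. The other 4 pairs had r of 0.51 (Arntl and Nr1d1), -0.48 (Arntl and Per2), -0.28 (Dbp and Nr1d1) and 0.37 (Dbp and Per3), with exact permutation p from 0.0903 to 0.188. No pair passed after adjustment.

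Genes most like Dbp and Arntl over the 12 arrays were ranked by Pearson's r among 6189 other genes at or above the median mean level. The arrays share group differences, so these r describe likeness and carry no test. For Dbp the highest were Bcar1 (0.897), Mta3 (0.895), Tcea3 (0.889), Gstm6 (0.881) and Hsd3b5 (0.872). The lowest were Desi2 (-0.887), Nedd4l (-0.886), Pdlim1 (-0.884), Pnrc1 (-0.878) and Mdm2 (-0.875). For Arntl, whose level was near the floor, the highest were Sart3 (0.893), Tmub1 (0.853), Ap5s1 (0.843), Spata13 (0.832) and Commd7 (0.827), and the lowest Pcsk4 (-0.859), Fbln1 (-0.802), Cmas (-0.783), Tmem184b (-0.771) and Nanp (-0.754). The clock genes examined here were left out of this ranking, as were other core clock genes below the median level. Their absence from these 20 was therefore fixed in advance. The remaining core clock genes, such as Rora and Hlf, could have appeared and did not.

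Other cues that set the liver clock were read from their own genes. Of 9 measured genes linked to body temperature, limma called 0 in every comparison, with 2, 0, 1 and 4 at an unadjusted p under 0.05 in the order used above, against 11.7%, 16.3%, 14.0% and 17.8% of all genes. Of 11 glucocorticoid-responsive genes, the metallothionein genes Mt1 (1.25, limma adjusted p = 0.0442) and Mt2 (1.53, adjusted p = 0.0203) rose with RA in wild type mice, where Nr1d1 fell. These 2 calls stand beside 1.27% of all genes. Of these 11, 10 had a positive difference there, with a median of 0.56 (0.37 to 0.74 with 1 array left out). An unadjusted p under 0.05 was seen for 4 of them, against 11.7% of all genes. Per1 differed by only 0.14 in that comparison (limma adjusted p = 0.873). Fkbp5, a co-chaperone gene of the glucocorticoid receptor, was higher by 1.44 and not called (adjusted p = 0.0512). Without WT_RA 3 and KO 1 neither Mt1 nor Mt2 passed (limma adjusted p = 0.136 and 0.0722). The Mt2 call was also absent without WT_RA 2 or WT_RA 3, and the Mt1 call without any 1 of WT 2, WT 3, the WT_RA arrays and the KO_RA arrays. The KO_RA arrays are outside WT_RA against WT, and without any 1 of them the Mt1 difference stayed at 1.25. Tat, a tyrosine aminotransferase gene, rose in KO mice under RA (0.92, limma adjusted p = 0.0376), where Per1 was higher by 0.86 and not called. Tat was the only 1 of the 11 called, against 0.5% of all genes. Of the 11, 9 had a positive difference (median 0.50), and 4 had an unadjusted p under 0.05, against 14.0% of all genes. In KO against WT, where Per1 was lower by 0.64 (difference -0.64) and not called, limma called 0 of the 11, against 1.32% of all genes. Of the 11, 5 had an unadjusted p under 0.05 and 6 did not overlap, against 16.3% and 20.1% of all genes. The median of the 11 was -0.28. That median was -0.10 without KO 3 and -0.40 without KO 1. In KO_RA against WT_RA 0 of the 11 passed even unadjusted, against 17.8% of all genes (median -0.18). The Tat call was absent without any 1 of KO 1, KO 2, KO 3, KO_RA 2 and KO_RA 3. Of 13 fasting and feeding genes 1 rose with RA in wild type mice and with RXRα deficiency on the normal diet, Igfbp1 (2.15 and 2.06, limma adjusted p = 0.00966 and 0.012), and 0 fell. The shares of all genes called were 1.27% and 1.32%. The first of these Igfbp1 calls was absent without WT 3 (adjusted p = 0.0502) and with only the groups compared (0.051). In KO against WT 7 of the 13 had an unadjusted p under 0.05 and 7 did not overlap, against 16.3% and 20.1% of all genes. Among them were the gluconeogenic gene G6pc (-2.0, limma adjusted p = 0.119) and Angptl4, an inhibitor of lipoprotein lipase (-1.56, adjusted p = 0.0946), neither called. The part of these cues in the levels of Nr1d1, Nfil3 and Per1 was not tested.

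Markers of other liver cells moved with the groups too. The summed level of 10 Kupffer cell and macrophage markers was 10.8 to 11.03 on the log2 scale in WT, 11.5 to 12.4 in WT_RA, 11.3 to 13.5 in KO and 11.5 to 11.8 in KO_RA. All 10 had positive differences in WT_RA and in KO against WT, and limma called 0 of them (lowest adjusted p = 0.0795 and 0.093). There 5 and 10 had an unadjusted p under 0.05, against 11.7% and 16.3% of all genes. Arrays did not overlap for 8 and 6, against 16.6% and 20.1%. In KO_RA against KO all 10 had negative differences (median -0.58), and in KO_RA against WT_RA 9 of 10 did (median -0.24), with 0 called in either. These medians depended on single arrays. With 1 array left out, that of KO_RA against KO ran from -1.08 (without KO 1) to -0.08 (without KO 2). In KO_RA against WT_RA it ran from -0.43 to 0.03, the latter without WT_RA 3. In WT_RA against WT it ran from 0.71 to 1.14, and in KO against WT from 0.77 (without KO 2) to 1.66. The part of Kupffer cells and macrophages in the clock gene levels was not tested. Summed hepatocyte markers read 15.9 in every group. Of 8 endothelial markers, 7 had a positive difference in KO against WT (median 0.37). There 5 had an unadjusted p under 0.05 and 3 did not overlap, against 16.3% and 20.1% of all genes. Tek fell in KO mice under RA (difference -0.99, limma adjusted p = 0.0184, absent without KO 3 or KO_RA 2), the only 1 of the 8 called, against 0.5% of all genes. No marker of cholangiocytes, stellate cells or T and NK cells passed in limma in the 4 comparisons. In the order used above, 1, 0, 4 and 0 of 7 stellate cell markers had an unadjusted p under 0.05. For 6 T and NK cell markers the counts were 0, 3, 0 and 0, and for 5 cholangiocyte markers 1, 0, 0 and 0. The shares of all genes were 11.7%, 16.3%, 14.0% and 17.8%. In KO_RA against KO 6 of the 7 stellate cell markers had negative differences, and 4 did not overlap, against 20.9% of all genes. In KO against WT all 6 T and NK cell markers had positive differences, and 2 did not overlap, against 20.1%.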

How the data were processed

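Liver RNA was hybridized to Affymetrix mouse genome arrays, 1 per mouse, and groups and replicate numbers came from the titles of the samples, described there as biological replicates. The authors deposited log2 values per probe set. Per the labels these are RMA signals made with Partek 6.11 (background correction, quantile normalization and probe summary across arrays, which can compress low levels), whereas the study's methods name MAS5 with a detection filter for its own analysis. Scanner files were not used here. Array medians lay between 6.26 and 6.35. The number of arrays limits the precision.

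Of 22690 probe sets, 20380 had 1 gene symbol in the platform annotation, 691 several and 1555 none, and 64 were controls. Each of 12393 genes was read from its brightest probe set by mean level. As the study names no model, limma 3.58.1 in R 4.3.3 was fitted with 1 coefficient per group and 8 residual degrees of freedom (eBayes, two-sided, Benjamini-Hochberg over all genes, threshold 0.05), and tested on simulated data. Correlations used scipy 1.17.1 in Python 3.11.15.

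The clock genes and the other lists were chosen by name with earlier results of these data known. Genes named are the 10 clock genes, up to 4 called members of each list and comparison, and those most and least like Dbp and Arntl. Obp2a, Npas2, Rora, Hlf, Cry2, Fkbp5, G6pc, Angptl4, Alb and Ttr are outside this rule and were named after their values were seen. Alternatives were a replicate block, a filter on dim probe sets, a further quantile normalization, the mean of all probe sets of a gene, array weights, only the groups compared, WT_RA 3 and KO 1 left out, and each array left out in turn. List medians, and the other probe sets of a clock gene, with arrays left out were added after seeing the data.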

Additional observations from a re-analysis of the deposited data

How the results depend on the processing

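Of 18 called differences of named genes, each refitted under 18 or 19 alternatives, 285 of 340 refits kept the call, 55 lost it and 0 changed sign. Of 47 differences not called, 794 of 878 refits left them so with the same sign, 14 gained a call and 70 changed sign. No consistent pairing by replicate number was seen. Deviations from the group means on same-numbered arrays correlated from -0.46 to 0.27, with 5 of 18 pairs above 0.1. Arrays with different numbers were not compared in this way. With the replicate block 1 clock gene was called in WT_RA against WT in place of 2, as Nr1d1 lost its call (adjusted p = 0.0707). With 1 array left out the counts were 1 to 2 there, 0 to 1 in KO_RA against KO and 1 to 2 in KO_RA against WT_RA. Array weights called 3 in WT_RA against WT (Dbp too), 1 in KO against WT (Per1), 1 in KO_RA against KO (Per1), 2 in KO_RA against WT_RA (Nfil3 and Nr1d1) and 1 for the difference between genotypes (Nfil3). Leaving out WT_RA 3 and KO 1 called 1 in KO_RA against KO (Per1), and the dim filter, which removed Arntl, or only the groups compared called 2 in KO_RA against WT_RA (Nfil3 and Nr1d1). The causes were not tested.

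The differences that changed sign were not called. With array weights they were Clock 0.052, Per3 -0.12, Nr1d2 -0.060 and Tef -0.11 in WT_RA against WT, Arntl 0.21, Per3 -0.64, Nr1d2 -0.16, Tef -0.16 and Nfil3 0.014 in KO against WT, Nr1d1 -0.28 in KO_RA against KO, Arntl -0.058, Clock -0.0075 and Per1 -0.051 in KO_RA against WT_RA, and Arntl -0.27, Per3 0.29 and Tef 0.19 for the difference in RA effect. Without both WT_RA 3 and KO 1 they were Arntl -0.030 in WT_RA against WT, Per3 -0.0031 and Nr1d2 -0.085 in KO against WT, Nr1d1 -0.086 in KO_RA against KO, and Clock -0.0066, Per1 -0.13 and Tef -0.052 in KO_RA against WT_RA. Further quantile normalization gave Nfil3 0.042 in KO against WT, Tef -0.027 in KO_RA against KO, and Arntl -0.013 in KO_RA against WT_RA. The mean of all probe sets gave Nr1d2 -0.21 and Tef -0.13 in WT_RA against WT, Per3 -0.019, Nr1d2 -0.17 and Tef -0.064 in KO against WT, Clock -0.0011 and Nr1d2 0.023 in KO_RA against WT_RA, and Nr1d2 0.20 and Tef 0.27 for the difference in RA effect.

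Leaving out 1 array gave Arntl -0.093 to 0.27, Nr1d2 -0.014 to 0.17, Tef -0.069 to 0.20 and Per1 -0.030 to 0.35 in WT_RA against WT. It gave Nfil3 -0.13 to 0.098, Arntl -0.30 to 0.015, Per3 -0.081 to 0.79, Nr1d2 -0.085 to 0.099 and Tef -0.066 to 0.20 in KO against WT, and Nr1d1 -0.086 to 0.70, Per3 -0.17 to 0.38 and Tef -0.11 to 0.14 in KO_RA against KO. It gave Arntl -0.18 to 0.14, Tef -0.10 to 0.14, Clock -0.0092 to 0.20 and Per1 -0.13 to 0.25 in KO_RA against WT_RA, and Tef -0.18 to 0.083 and Arntl -0.033 to 0.33 for the difference in RA effect. Over all genes the 5 comparisons in this order had 158, 163, 62, 490 and 1 calls. Array weights gave 1070, 1734, 303, 1064 and 247. Leaving out both arrays gave 95, 266, 110, 312 and 12. The block gave 98 in KO against WT and 2 in the last, quantile normalization 107 in KO_RA against KO, the mean of all probe sets 6 in the last, and only the groups compared 103, 70 and 21 in WT_RA against WT, KO against WT and KO_RA against KO. Leaving out 1 array gave 47 to 212, 51 to 217, 6 to 77, 170 to 599 and 1 to 14. In KO_RA against WT_RA 115 of the 490 calls were higher, against 158 of 446 after quantile normalization.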
